A study of Mus musculus with 4 samples.

Results

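The genes described here build cholesterol and fatty acids, and they were chosen as a fixed list of 28 gene symbols, of which 24 were measured among the 19505 genes of the arrays. A member was taken from the probe sets annotated to that symbol alone, and each of the 24 had 1 such probe set. The sterol branch held 16 measured members (13 enzymes, Srebf2, Insig1 and Stard4) and the fatty acid branch held 8. Acat2, Srebf1, Scd2 and Acsl3 were not analysed here. The samples were macrophages grown in vitro from mouse bone marrow of 2 Hem1 KO and 2 WT mice, with 1 array per mouse. Hem1, encoded by Nckap1l, is the hematopoietic subunit of the WAVE complex, which switches on branching of actin filaments. All 4 cultures had the same 8 days in RPMI with 10% fetal calf serum and 20% L929-conditioned medium, which supplies CSF1 to growing macrophages. The serum brings lipoprotein cholesterol and fatty acids to every culture. The strain, the age and the deleted part of Nckap1l are not given in the sources used here.

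Cholesterol is made from acetyl-CoA through mevalonate, squalene and lanosterol, and fatty acids are made from the same acetyl-CoA through malonyl-CoA. Both branches are controlled by SREBP transcription factors. SREBP2, encoded by Srebf2, mainly drives the sterol enzymes, and SREBP1, encoded by Srebf1, mainly drives the fatty acid enzymes. When membrane sterol is plentiful, INSIG proteins hold SREBP and its escort SCAP in the endoplasmic reticulum and the genes of the pathway stay low. Macrophages combine this supply with uptake of lipoproteins and of dead cells, and they export surplus sterol under the nuclear receptor LXR, which also raises Srebf1 and Scd genes.

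SREBPs act on promoters together with NF-Y and Sp1, so the stretch before the start of some members is shown to let the letters of these elements be seen. A promoter was in the RefSeq table (build GRCm38.p6) for 18 of the 24 measured members. The window searched was the 250 bases before the start, on both strands. The members printed here run 5′ to 3′ on the gene's own strand, 3 of the sterol branch that differ in the number and place of these elements and 2 of the fatty acid branch that had the highest differences between genotypes. Capitals mark a core of the sterol regulatory element (TCACNCCAC), the NF-Y box (CCAAT) and the Sp1 box (GGGCGG), in either orientation.
Hmgcs1 (chr13:119690101-119690350, plus strand): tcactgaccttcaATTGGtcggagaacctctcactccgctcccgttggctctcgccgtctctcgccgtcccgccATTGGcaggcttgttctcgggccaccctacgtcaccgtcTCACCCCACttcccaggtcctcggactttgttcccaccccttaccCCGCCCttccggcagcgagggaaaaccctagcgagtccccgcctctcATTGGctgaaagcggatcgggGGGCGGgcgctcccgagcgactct
Msmo1 (chr8:64733579-64733828, minus strand): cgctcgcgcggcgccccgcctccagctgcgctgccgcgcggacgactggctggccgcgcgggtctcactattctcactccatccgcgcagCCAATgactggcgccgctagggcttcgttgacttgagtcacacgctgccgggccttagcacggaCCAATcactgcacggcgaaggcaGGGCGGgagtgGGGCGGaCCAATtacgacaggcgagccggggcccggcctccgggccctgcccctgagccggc
Srebf2 (chr15:82147019-82147268, plus strand): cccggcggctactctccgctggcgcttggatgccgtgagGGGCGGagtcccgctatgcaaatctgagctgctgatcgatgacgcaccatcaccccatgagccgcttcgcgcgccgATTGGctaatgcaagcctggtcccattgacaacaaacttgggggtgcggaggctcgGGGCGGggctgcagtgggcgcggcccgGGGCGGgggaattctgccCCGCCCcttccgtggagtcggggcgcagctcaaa
Fasn (chr11:120824548-120824797, minus strand): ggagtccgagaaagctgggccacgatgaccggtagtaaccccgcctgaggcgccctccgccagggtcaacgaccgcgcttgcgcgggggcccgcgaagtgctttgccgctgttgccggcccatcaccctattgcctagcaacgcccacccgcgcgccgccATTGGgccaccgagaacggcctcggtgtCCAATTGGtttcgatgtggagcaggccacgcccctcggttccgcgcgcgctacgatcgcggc
Fads2 (chr19:10101504-10101753, minus strand): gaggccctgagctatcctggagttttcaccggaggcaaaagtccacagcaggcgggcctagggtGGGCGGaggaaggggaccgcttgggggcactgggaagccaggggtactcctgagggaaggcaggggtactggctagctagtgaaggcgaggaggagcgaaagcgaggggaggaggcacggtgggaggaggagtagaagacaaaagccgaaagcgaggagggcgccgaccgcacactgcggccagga

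All 12 measured sterol members with a promoter in the table held CCAAT, against 37.5% of the table's 27025 genes. The same 12 held GGGCGG, against 35.4% of genes. In the fatty acid branch, 2 of 6 held CCAAT (Fasn and Elovl5) and 2 of 6 held GGGCGG (Acly and Fads2). The stricter core TCACNCCAC was in Hmgcs1 alone, from 137 to 129 bases before its start, against 1.22% of genes. Only exact matches were counted, and near matches in the printed stretches are not marked. In Fasn, 2 CCAAT boxes of opposite orientation overlap, which gives the run of capitals nearest the start. The E-box CACGTG was in Dhcr7, Sc5d, Insig1 and Elovl5, against 6.86% of genes. The consensus DR4 repeat, a form of the LXR element, was searched too and was in none of the 18 and in 0.0148% of genes. A match is a run of letters in this window, and binding was not measured.

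The arrays give log2 values from the submitters' RMA processing, which summarises the probes of a probe set into 1 value, so that a difference of 1 is a doubling. Nckap1l read 10.04 and 9.62 on the Hem1 KO arrays, against 11.37 and 11.11 on the WT arrays. Its difference was -1.41 (SE 0.32, adjusted p = 0.0467 by limma, a linear model that borrows its spread from all genes). The call ended when only genes above background, defined below, on at least 2 arrays were tested (adjusted p = 0.0866 by limma). With 1 array left out the difference ran from -1.62 to -1.20. Such fits leave 1 array in a genotype. They gave every gene named here the same SE, 0.50 without a WT array and 0.40 without a Hem1 KO array. A call gained or lost there is therefore not read as a trait of the gene. Where the probes of Nckap1l lie relative to the deleted part is not given, so this level does not check the labels. The 8 measured macrophage markers, among them Csf1r and Adgre1, were above background (the 95th percentile of chemosensory receptor genes on each array) on all arrays, with mean log2 levels of 11.42 and 11.32 on the Hem1 KO arrays and 11.89 and 11.55 on the WT arrays. Stromal cell markers differed between the genotypes: 6 of 9 were called higher in Hem1 KO, against 1.48% of all genes. Their mean level was 8.68 and 8.11 on the Hem1 KO arrays and 7.04 and 6.58 on the WT arrays. Lepr and Lum, also stromal, lay at or below background on all arrays. In such bulk cultures, fewer cells of a type and less RNA per cell cannot be told apart.

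None of the 24 synthesis genes differed between Hem1 KO and WT macrophages at the threshold. Limma called 0 members of either branch (adjusted p under 0.05 over all 19505 genes), and 0 had an unadjusted p under 0.05. Over all genes 1.61% were called and 5.2% had an unadjusted p under 0.05, and at such shares few or no members would pass. The median difference, Hem1 KO minus WT, was -0.05 in the sterol branch and -0.05 in the fatty acid branch, beside 0.01 over all genes and -0.05 over the 11779 genes above background on all arrays. Single arrays moved both medians. That of the sterol branch was -0.24 when WT replicate 1 was left out and -0.25 when Hem1 KO replicate 2 was. That of the fatty acid branch turned to 0.020 without WT replicate 2, 0.051 without Hem1 KO replicate 1 and 0.011 without Hem1 KO replicate 2. The median over all genes moved too. It was 0.16 without WT replicate 1, -0.13 without WT replicate 2, -0.18 without Hem1 KO replicate 1 and 0.21 without Hem1 KO replicate 2. Of the sterol members 5 lay above 0 and 11 below, and of the fatty acid members 3 lay above 0 and 5 below. Over all 19505 genes 9392 lay below 0, as did 6812 of the 11779 above background on all arrays. The 95% intervals of the members reached at most 2.54-fold lower (Sqle) and 2.39-fold higher (Fads2) in Hem1 KO. With 2 arrays per genotype, differences within these bounds stay unresolved, and the lack of calls does not show that the genotypes were alike.

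**Figure D1:**
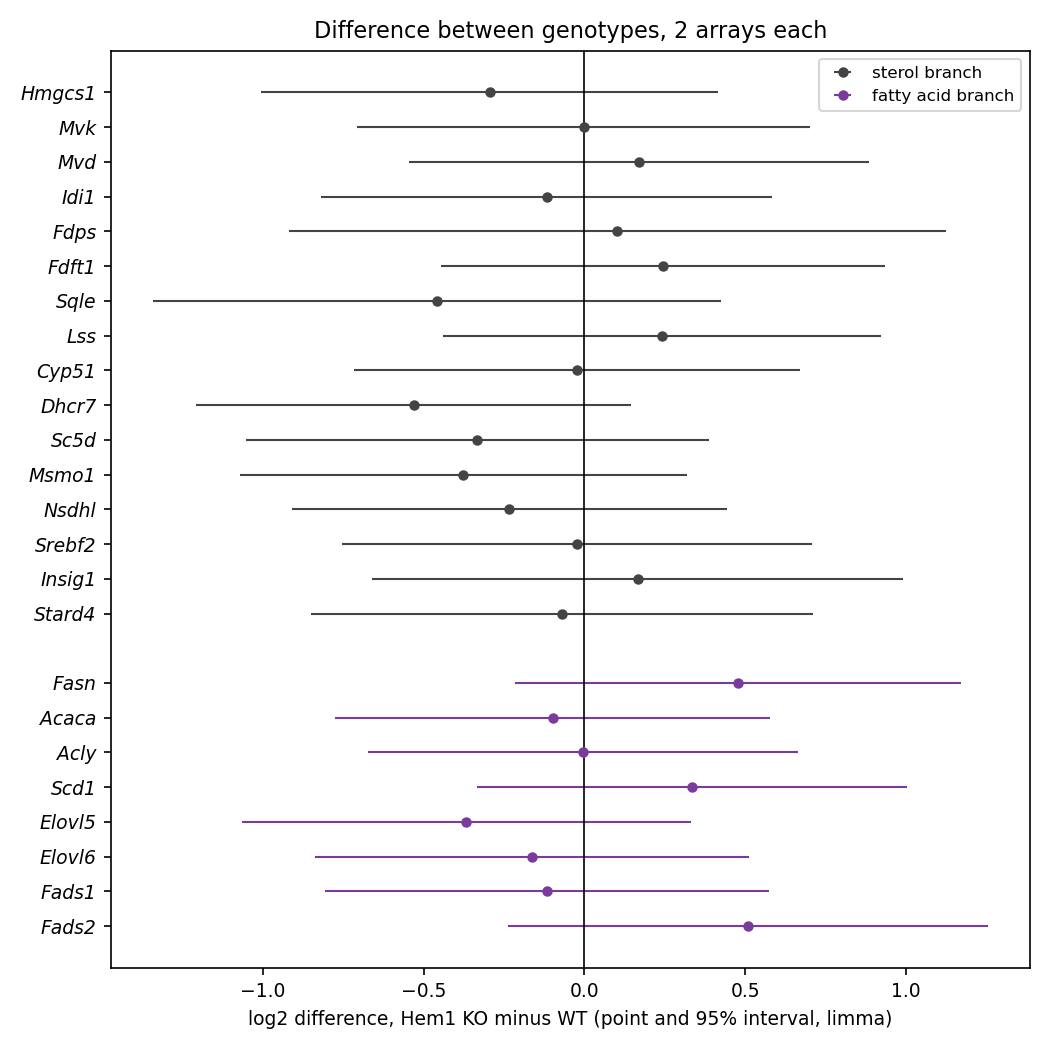
Log2 difference of each measured member, Hem1 KO minus WT (point), with its 95% interval by limma (bar), for 2 arrays per genotype. All 24 intervals cross 0, and the points run from -0.53 for Dhcr7 to 0.51 for Fads2.

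The upper mevalonate pathway was read through 4 enzymes. Hmgcs1, which joins acetyl units into HMG-CoA, read 7.92 and 8.21 on the Hem1 KO arrays, against 8.10 and 8.62 on the WT arrays. Its arrays overlapped between genotypes (difference -0.29, SE 0.33). Mevalonate kinase, Mvk, read 7.07 and 7.33 in Hem1 KO and 7.44 and 6.96 in WT, with both Hem1 KO values inside the WT range (difference 0.00, interval -0.71 to 0.70). The decarboxylase Mvd read 8.72 and 8.10 in Hem1 KO and 8.22 and 8.25 in WT, so that the Hem1 KO arrays lay on either side of WT. Idi1, which isomerises the isoprene unit, was at or below background on all 4 arrays (5.10 and 4.59 in Hem1 KO, 5.02 and 4.90 in WT), and no fold is given for it. The other 23 members were above background on every array.

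Fdps and Sqle, on either side of squalene, differed widely between arrays of one genotype. Fdps, which makes farnesyl diphosphate, read 8.43 and 9.92 in Hem1 KO and 8.53 and 9.62 in WT (replicates 1 and 2). The gap between the arrays of a genotype was 1.49 in Hem1 KO and 1.09 in WT, while the genotypes differed by 0.10 (SE 0.47). Squalene epoxidase, Sqle, a control point of the pathway, had the same layout, with 6.44 and 7.31 in Hem1 KO and 6.80 and 7.87 in WT. Its difference was -0.46 (SE 0.41), with a 95% interval of -1.34 to 0.42. Squalene synthase, Fdft1, which lies between these enzymes, read 8.76 and 8.99 in Hem1 KO and 8.45 and 8.81 in WT, with smaller gaps of 0.23 and 0.36. In all 3 genes the replicate 2 array was the higher one in each genotype.

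Lanosterol synthase, Lss, which closes the sterol rings, read 8.11 and 8.39 in Hem1 KO, against 7.92 and 8.09 in WT. Both Hem1 KO arrays lay above both WT arrays, by as little as 0.02 between the nearest (difference 0.24, SE 0.32). The demethylase Cyp51 read 7.52 and 7.29 in Hem1 KO and 7.23 and 7.63 in WT, with no separation. Msmo1, an oxidase that helps strip the methyl groups of the sterol ring, read 8.54 and 8.54 in Hem1 KO, against 8.68 and 9.15 in WT. Nsdhl, the dehydrogenase of the same step, read 8.73 and 9.02 in Hem1 KO, against 9.08 and 9.13 in WT. Both genes had both Hem1 KO arrays under both WT arrays, with differences of -0.38 (SE 0.32) for Msmo1 and -0.23 (SE 0.31) for Nsdhl.

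The last desaturation and reduction steps were read through 2 genes. Dhcr7, which makes cholesterol from its immediate precursor, read 8.37 and 8.38 in Hem1 KO, against 8.77 and 9.05 in WT. Its difference of -0.53 (SE 0.31, 95% interval -1.21 to 0.15) had the smallest unadjusted p of the 24, 0.114, and an adjusted p of 1 by limma. The gap between the 2 Hem1 KO arrays was 0.01, and both lay below both WT arrays. The desaturase Sc5d read 9.53 and 9.38 in Hem1 KO and 9.47 and 10.10 in WT, and its Hem1 KO arrays lay around the lower WT array.

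Among the sterol regulators, Srebf2, the gene of the master activator, read 10.21 and 10.64 in Hem1 KO and 10.16 and 10.73 in WT. Its difference was -0.02 (SE 0.34, 95% interval -0.75 to 0.71), against gaps of 0.43 and 0.57 between the arrays of a genotype. Insig1, itself an SREBP target and the brake on SREBP, read 9.91 and 8.80 in Hem1 KO and 9.35 and 9.02 in WT. Here the replicate 1 array was the higher one in both genotypes, opposite to Fdps, Sqle and Srebf2. Stard4, a carrier of sterol between membranes, read 6.67 and 7.63 in Hem1 KO and 7.25 and 7.19 in WT, so that its spread lay in the Hem1 KO arrays.

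In the fatty acid branch, Acly, which releases acetyl-CoA from citrate for both branches, read 11.97 and 11.99 in Hem1 KO and 11.90 and 12.06 in WT. It had a small spread on all 4 arrays and a difference of 0.00 (SE 0.31). Acaca, which makes malonyl-CoA, read 7.90 and 7.63 in Hem1 KO and 7.82 and 7.92 in WT, with overlapping arrays. Fatty acid synthase, Fasn, read 10.03 and 10.30 in Hem1 KO, against 9.50 and 9.87 in WT. Both Hem1 KO arrays of Fasn lay above both WT arrays (difference 0.48, SE 0.32, 95% interval -0.21 to 1.17), and the unadjusted p was 0.160 by limma.

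The desaturases and elongases were mixed. The stearoyl-CoA desaturase Scd1 read 6.58 and 6.67 in Hem1 KO, against 6.23 and 6.36 in WT, again with both Hem1 KO arrays above WT (difference 0.33, SE 0.31). Fads2, the first desaturase of polyunsaturated fatty acid synthesis, read 9.18 and 9.76 in Hem1 KO and 8.69 and 9.24 in WT. Its difference of 0.51 (SE 0.35) was the highest of the 24, and its arrays overlapped. Its partner Fads1, which acts on the elongated product, read 9.66 and 10.09 in Hem1 KO and 10.02 and 9.96 in WT, with a difference of -0.12 (SE 0.32). The elongase of polyunsaturated chains, Elovl5, read 8.78 and 8.43 in Hem1 KO, against 8.80 and 9.14 in WT. Elovl6, which extends the palmitate made by fatty acid synthase, read 6.80 and 6.85 in Hem1 KO, against 6.86 and 7.11 in WT. Both elongases had both Hem1 KO arrays under both WT arrays, by only 0.02 between the nearest arrays of Elovl5 and 0.01 for Elovl6. The differences were -0.37 (SE 0.32) for Elovl5 and -0.16 (SE 0.31) for Elovl6.

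**Figure D2:**
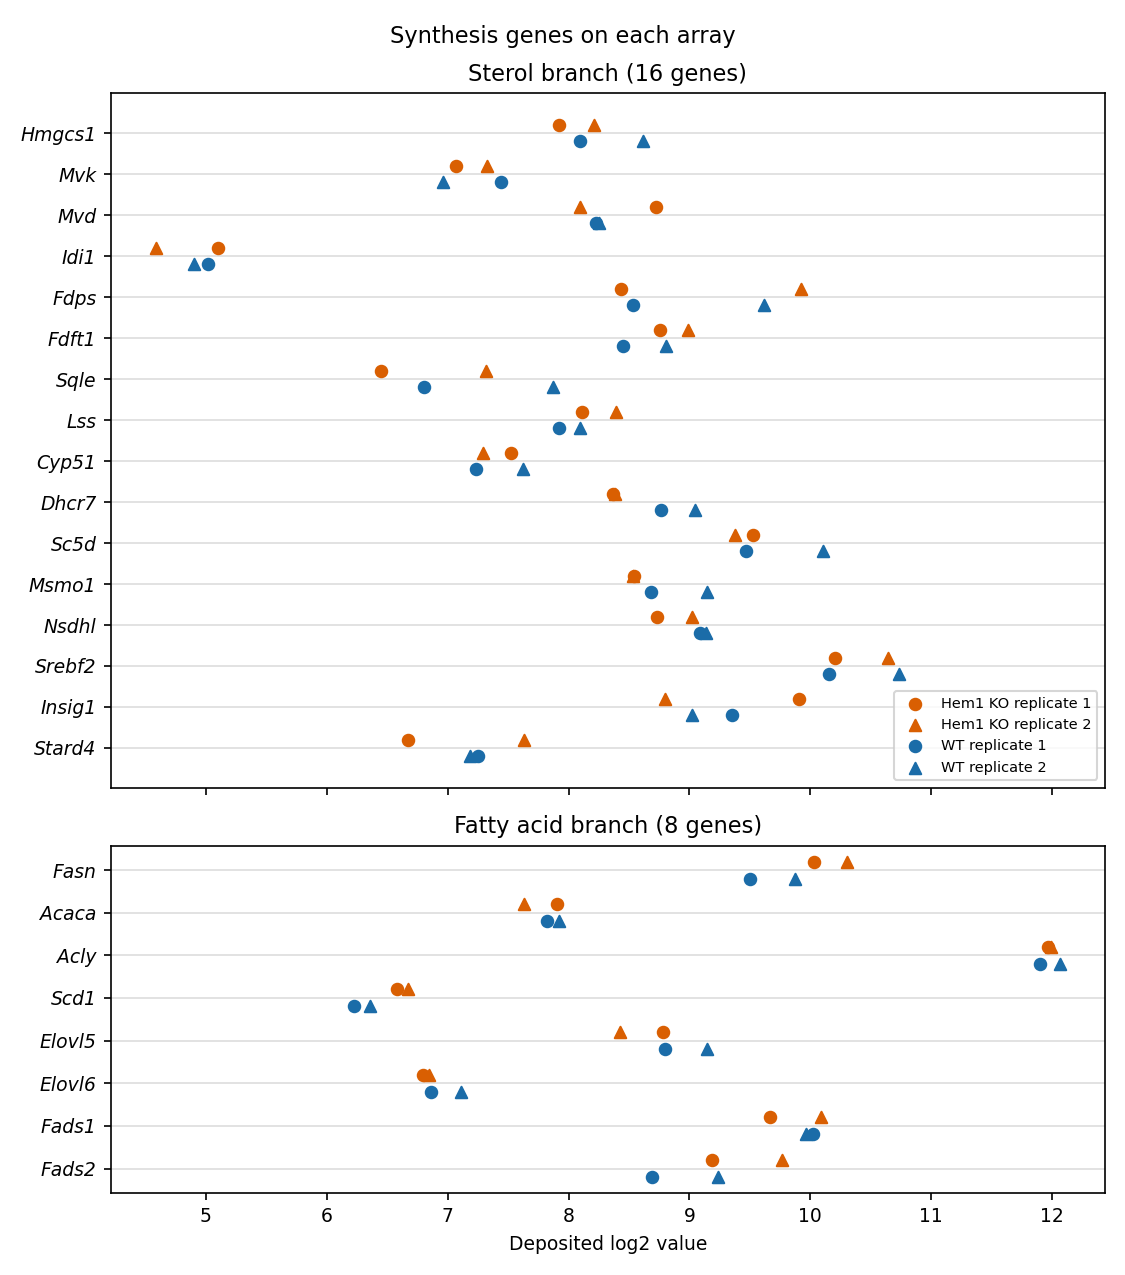
Deposited log2 value of each measured member on the 4 arrays, Hem1 KO in orange drawn above WT in blue within a row, circles for replicate 1 and triangles for replicate 2. The 2 genotypes overlap in 16 of 24 genes, and in Fdps and Sqle the triangles lie about 1 log2 unit right of the circles in both genotypes. Levels of different genes are not comparable, since each has its own probes.

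In all, the arrays of the genotypes did not overlap for 8 of 24 members, against 25.8% of all genes. Of the 11779 genes above background on all arrays, 8098 overlapped. Hem1 KO was the higher in 3 members (Lss, Fasn and Scd1), against 12.5% of all genes and 1332 of those 11779. It was the lower in 5 (Dhcr7, Msmo1, Nsdhl, Elovl5 and Elovl6), against 13.3% of all genes and 2349 of those 11779. By branch, 1 sterol and 2 fatty acid members lay above WT, and 3 sterol and 2 fatty acid members lay below. The 4 of 16 sterol members are close to the share of all genes, while the 4 of 8 fatty acid members are a larger share of few genes, split evenly by direction. For 20 of 24 members the difference between genotypes was smaller than the larger gap between the 2 arrays of a genotype, as it was for 82.9% of all genes. The 4 exceptions were Dhcr7, Fasn, Scd1 and Elovl5.

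The gaps between the 2 arrays of a genotype often ran the same way in Hem1 KO and in WT, among members and among all genes. The array that read higher was mostly replicate 2 for members and mostly replicate 1 over all genes. In 13 of 24 members the replicate 2 array read higher than the replicate 1 array in both genotypes: 8 of the sterol branch (Hmgcs1, Fdps, Fdft1, Sqle, Lss, Dhcr7, Nsdhl and Srebf2) and 5 of the fatty acid branch (Fasn, Acly, Scd1, Elovl6 and Fads2). Over all genes 4.13% did so, and 5.72% of the genes above background on all arrays. The median gap, replicate 2 minus replicate 1, was 0.25 in Hem1 KO and 0.32 in WT for the sterol branch, and 0.07 in Hem1 KO and 0.21 in WT for the fatty acid branch. Over all genes it was -0.38 in Hem1 KO and -0.28 in WT, the replicate 2 arrays reading lower as a whole. The replicate 1 array was the higher one in both genotypes for 2 of 24 members (Idi1 and Insig1), against 70.8% of all genes and 66.6% of those above background on all arrays. Of these 2, Idi1 lay at or below background on every array. These shares depend on the scaling. After each array was centred on its median, 20 of 24 members were higher on the replicate 2 arrays, against 42.1% of all genes and 48.9% of those above background on all arrays. After quantile normalization 19 of 24 were, against 29.3% of all genes and 31% of those above background. The labels do not say what a replicate number stands for.

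**Figure D3:**
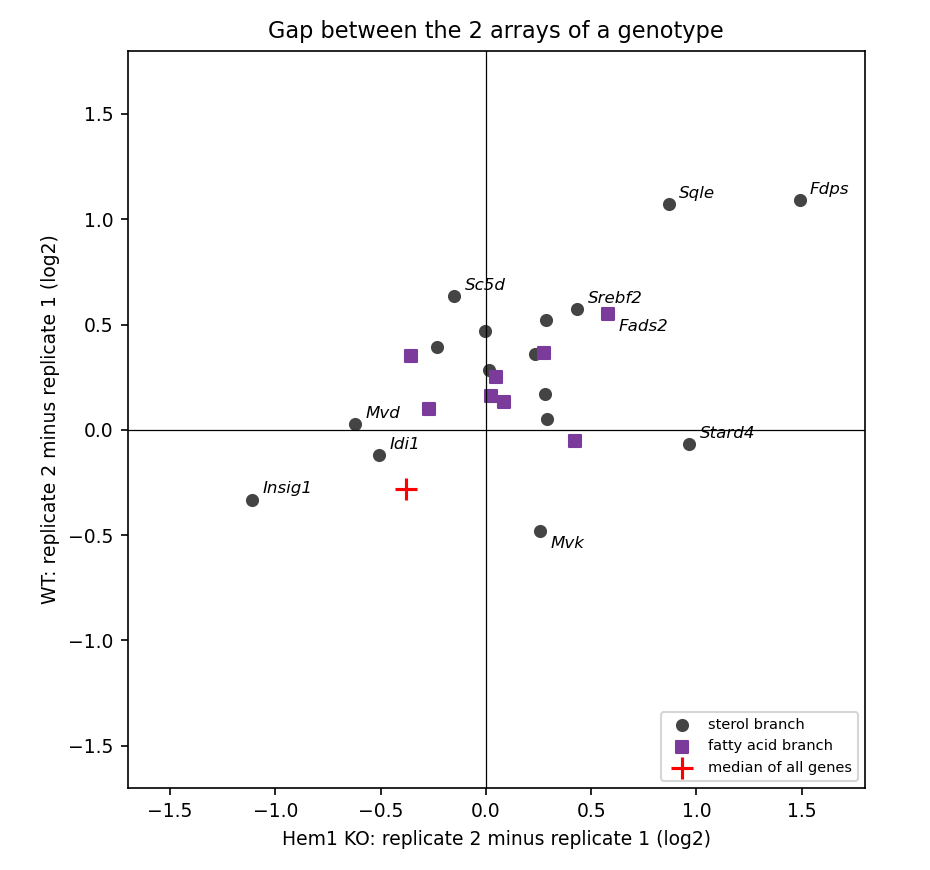
Replicate 2 minus replicate 1 (log2) of each measured member in Hem1 KO (horizontal) and in WT (vertical), with the sterol branch as circles, the fatty acid branch as squares and the median of all genes as a cross. The 13 members in the upper right area were higher on the replicate 2 array in both genotypes, while the cross lies at -0.38 and -0.28.

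Marker levels on the same arrays are given beside this pattern. The 9 measured proliferation markers had mean levels of 8.79 and 10.37 on the Hem1 KO arrays and 9.49 and 9.47 on the WT arrays. The stromal markers were higher on the replicate 1 array in both genotypes for 8 of 9 genes, as were 70.8% of all genes. The 6 measured adipocyte markers had mean levels of 6.25 and 5.38 in Hem1 KO and 5.91 and 5.43 in WT, and Adipoq and Lep lay at or below background on all arrays. What part any of these had in the members' levels was not tested.

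**Figure D4:**
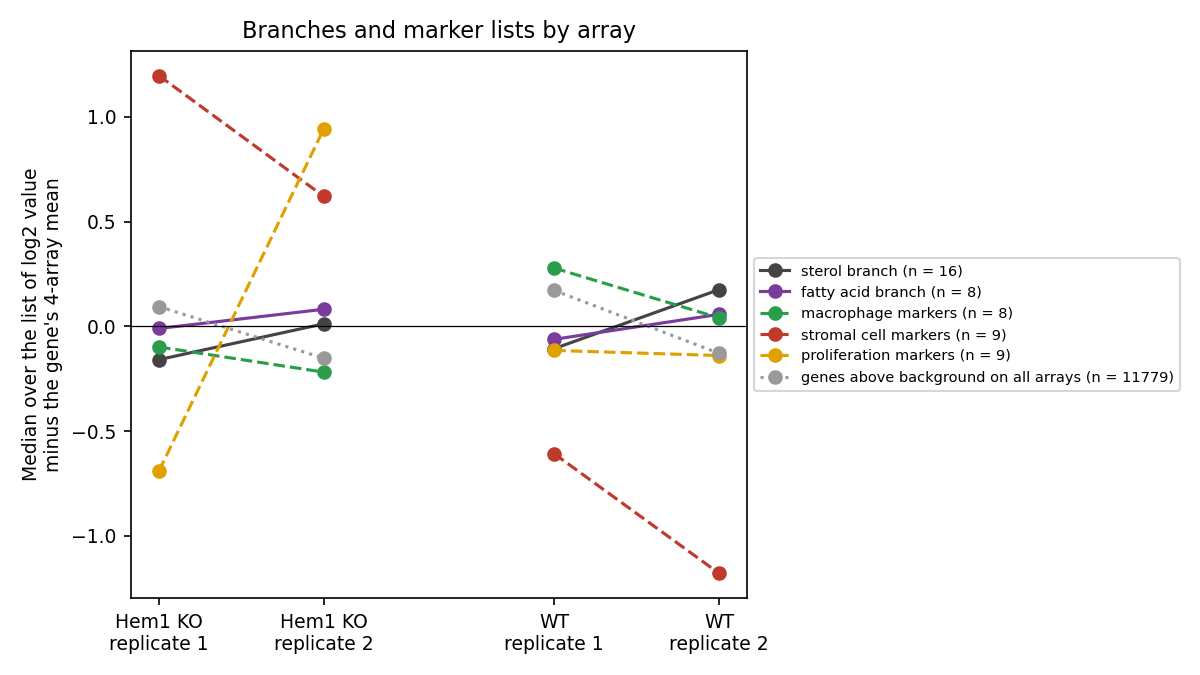
Median over a list of the log2 value minus each gene's mean over the 4 arrays, by array, for both synthesis branches, 3 marker lists and the 11779 genes above background on all arrays. Lines join the 2 arrays of a genotype. The sterol branch stands at -0.16 and 0.01 in Hem1 KO and at -0.11 and 0.18 in WT, while the stromal markers stand at 1.20 and 0.62 in Hem1 KO and at -0.61 and -1.18 in WT.

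Other genes of the pathway were read from lists that hold no member. Limma called 0 of 5 other sterol synthesis enzymes, with 0 at an unadjusted p under 0.05. Ebp, a sterol isomerase, read -0.42 (SE 0.31) and Hsd17b7, a reductase of the sterol ring, 0.34 (SE 0.32). It called 0 of 7 factors that process or turn over SREBP and its partners, also with 0 at an unadjusted p under 0.05. Insig2, the second INSIG gene, read -0.45 (SE 0.31) and the ubiquitin ligase gene Rnf139 -0.33 (SE 0.31). Of 7 genes for sterol uptake, transport and ester turnover, 0 were called and 0 had an unadjusted p under 0.05, with a median difference of -0.47. The arrays of 5 of these 7 did not overlap, all with Hem1 KO lower. This was so for 13.3% of all genes and 2349 of the 11779 above background on all arrays. The 5 were led by Npc1, which moves cholesterol out of lysosomes (-0.60, SE 0.32), and the lysosomal lipase gene Lipa (-0.50, SE 0.31). The macrophage markers stood at a median of -0.34, with 6 of 8 not overlapping in the same direction.

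Sterol surplus is sensed by LXR, and 1 gene of the LXR list was called. Nr1h3, which encodes LXR alpha, read 7.47 and 6.72 on the Hem1 KO arrays, against 8.98 and 8.82 on the WT arrays, and was called lower (difference -1.80, SE 0.34, adjusted p = 0.0139 by limma). The call ended when only genes above background on at least 2 arrays were tested (adjusted p = 0.0579 by limma). Nr1h3 was the only one called of the list's 8 measured genes, against 0.133% of all genes called lower. The sterol exporter gene Abcg1, named after its values were seen, read 7.15 and 6.82 in Hem1 KO and 8.21 and 8.20 in WT (difference -1.22, SE 0.32, adjusted p = 0.0961 by limma). Its difference ran from -1.39 to -1.06 with 1 array left out. Abca1, a further exporter gene named in the same way, read 10.32 and 10.03 in Hem1 KO and 11.18 and 10.59 in WT (-0.71, SE 0.33, adjusted p = 0.994 by limma). Other LXR targets of the list overlapped between genotypes, with differences of -0.07 for Mylip, -0.10 for Lpcat3 and -0.23 for Apoe, and the list's median was -0.17. On the same arrays the macrophage markers had a median difference of -0.34 and the stromal markers 1.94. What part these had in the genes of the LXR list was not tested. Scd1 and Fasn, which LXR can raise, had differences of 0.33 and 0.48, with both Hem1 KO arrays above WT. Limma called neither (unadjusted p = 0.301 and 0.160), and both intervals crossed 0. They were the only 2 of the 8 fatty acid members with this layout. Another 2, Elovl5 (-0.37) and Elovl6 (-0.16), had both Hem1 KO arrays below WT. The part of LXR in the levels of these members was not tested.

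In the wider fatty acid list, limma called 1 of 28 genes higher, against 1.48% of all genes, and 0 lower. The called gene was Fads3, a relative of Fads1 and Fads2, at 9.11 and 8.79 in Hem1 KO, against 7.60 and 7.45 in WT (2.68-fold, difference 1.42, SE 0.32, adjusted p = 0.0387 by limma). With 1 array left out its difference ran from 1.27 to 1.58. The call ended when only genes above background on at least 2 arrays were tested (adjusted p = 0.0685 by limma). Malic enzyme, Me1, a source of NADPH for synthesis, read 9.48 and 9.06 in Hem1 KO and 8.19 and 8.04 in WT (1.15, SE 0.32, adjusted p = 0.147). The dehydratase gene Hacd1 read 10.35 and 9.67 in Hem1 KO and 8.86 and 8.67 in WT (1.24, SE 0.34, adjusted p = 0.130). Me1 and Hacd1 were named after their values were seen. With 1 array left out the difference ran from 0.94 to 1.36 for Me1 and from 0.90 to 1.58 for Hacd1. The stromal markers were higher on the same arrays, with a median difference of 1.94, and their part in these 3 genes was not tested.

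**Figure D5:**
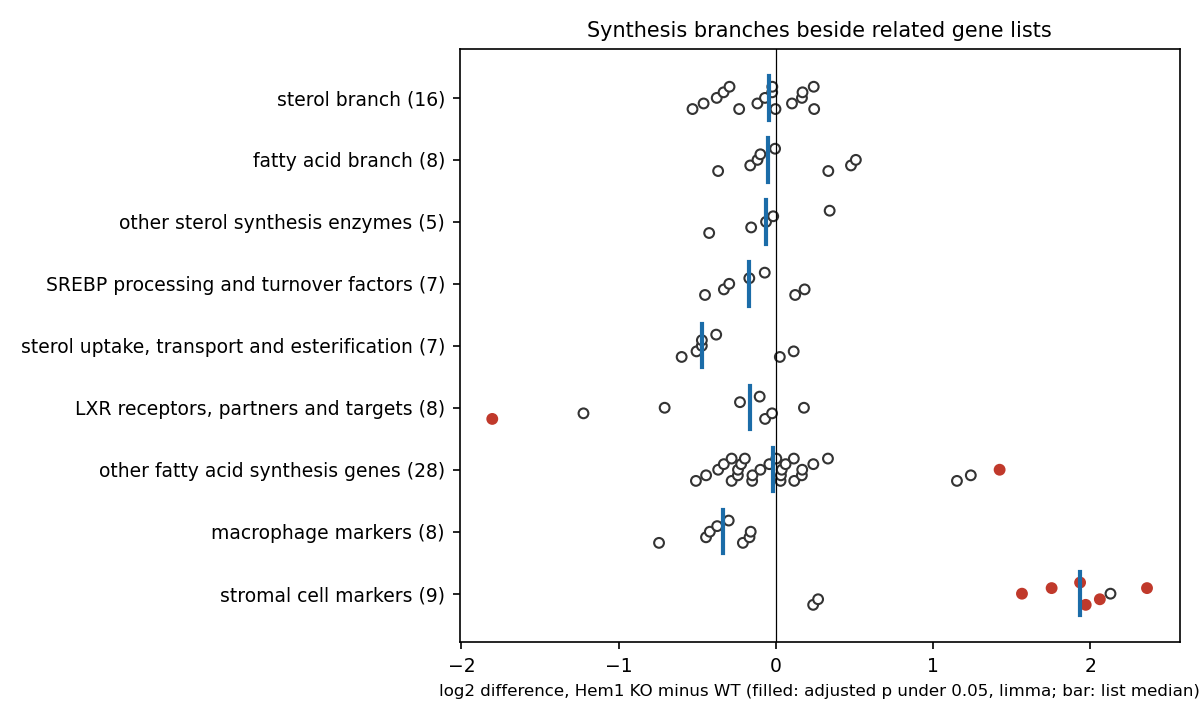
Log2 difference, Hem1 KO minus WT, of every measured gene in both synthesis branches, 5 related lists and 2 marker lists, with filled points for genes called by limma (adjusted p under 0.05) and a bar at each list's median. No point of either synthesis branch is filled, while Nr1h3 at -1.80, Fads3 at 1.42 and 6 of 9 stromal markers are.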

How the data were processed

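Per the submitters' processing notes, the authors' deposited log2 values came from RMA, without a version, settings or genome build given in the sources used here. Their range, 2.70 to 13.98, gave the scale. Per the labels, the 4 arrays were single-colour and biotin-labelled. Of 29129 rows, 19572 name 1 gene and 9557 name none. For 55 genes with several probe sets the brightest was kept, leaving 19505 genes. The test was limma 3.58.1 (R 4.3.3) with genotype as the only term and no intensity filter, two-sided, with Benjamini-Hochberg adjustment over all genes. The fit was tested on simulated data whose planted differences were larger than those of the members. Background was the 95th percentile of 1450 chemosensory receptor genes on each array (5.38 to 6.04). Array medians over genes ran from 6.42 to 6.95, and 12588 to 13074 genes were above background. The number of arrays limits the precision. With 2 arrays against 2, the smallest two-sided p of an exact permutation test is 0.333.

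The members, lists and tests were chosen with earlier results of these data known. All members are named. From the other pathway lists, called genes are named, or otherwise the 2 with the smallest p. Marker lists of neutrophils, basophils and mast cells, B cells, T cells, endothelial and erythroid cells had 0 of 7, 1 of 8, 0 of 5, 0 of 5, 1 of 6 and 0 of 3 genes called higher, and endothelial cells had 1 called lower. Over all genes 1.48% were called higher and 0.133% lower. Alternatives left out each array, added a replicate block, changed the scaling, filter, prior or probe set rule.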

Additional observations from a re-analysis of the deposited data

How the results depend on the processing

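Under the 11 alternatives, limma called 0 members each time (24 tested, or 23 without Idi1 among genes above background on at least 2 arrays), and their smallest adjusted p was 0.304 (Dhcr7 with the replicate block). The counts over all genes, 288 higher and 26 lower, were 185 to 545 higher and 26 to 101 lower when 1 array was left out, 620 and 199 with the replicate block, and 174 and 8 among genes above background on at least 2 arrays. The lower count was 70 after median centring, 16 after quantile normalization and 205 with an intensity trend in the prior. The cause was not tested. Deviations of same-numbered arrays correlated at 0.24 across genes. The labels do not state a pairing, and the block ended no call of a named gene.

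The sterol median ran from -0.25 to -0.0070 and the fatty acid median from -0.088 to 0.051 over single arrays left out, and that of the fatty acid branch read 0.043 after quantile normalization. The sign of 12 members changed: Acaca (-0.23 to 0.037), Acly (-0.085 to 0.076), Cyp51 (-0.22 to 0.17), Fads1 (-0.33 to 0.10), Fdps (-0.64 to 0.85), Idi1 (-0.37 to 0.14), Insig1 (-0.39 to 0.72), Mvd (-0.14 to 0.48), Mvk (-0.24 to 0.24), Sqle (-0.99 to 0.076), Srebf2 (-0.31 to 0.26) and Stard4 (-0.55 to 0.41) over single arrays left out. After quantile normalization Acly read 0.10 and Srebf2 0.11. Idi1 lay at or below background on every array, and the sterol median without it was -0.02. The call of Nr1h3 ended among the brighter genes (adjusted p = 0.0579 by limma), as did those of Fads3 (0.0685) and Nckap1l (0.0866). Abcg1, Me1 and Hacd1 passed after median centring (adjusted p = 0.0126, 0.0382 and 0.0256), with the replicate block (0.00234, 0.00380 and 0.00255) and with the trend (0.0389, 0.00607 and 0.000138). With the trend Abca1 and Lipa passed too (adjusted p = 0.0182 and 0.0379), and after quantile normalization Abcg1 and Me1 (0.0286 and 0.0393).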
